A study of Mus musculus with 2 samples.

Results

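The genes examined were 8 that encode transcription factors of the hepatocyte, the main epithelial cell of the liver: Hnf4a, Nr5a2, Foxa1, Foxa2, Foxa3, Onecut1, Onecut2 and Prox1. They were listed by name, and each was found in the mouse gene annotation GENCODE release 21. The authors' optimal list holds GATA4 binding regions made from both samples, replicates 1 and 2, and filtered by a score of reproducibility. Not all of them were seen in both. Before any threshold, replicate 1 had a peak over 72.1% of them and replicate 2 over 99.9%. The peaks of the 8 genes were all those of this list whose summit fell inside the gene or at most 10 kb from it. There were 24 such peaks at the 8 genes, out of 24050 peaks in the list and 21755 protein-coding genes.

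GATA4 binding had been mapped in whole liver of healthy adult mouse by chromatin immunoprecipitation with sequencing (ChIP-seq). The series held 1 group of 2 samples, replicates 1 and 2, each made with a GATA4 antibody. The labels give the 2 samples the same tissue and donor identifiers, so differences between them may be technical. The labels used here state no strain, sex or age beyond adult, and they name no genetic change or treatment. Whole liver mixes hepatocytes with endothelial, stellate and blood cells. A strong peak in few cells and a weak peak in many therefore cannot be told apart, and a peak does not show which cell type carried it. Peak lists hold no expression values, so the labelled tissue was not checked against marker genes. Sequencing depth is unknown. There was no second group to compare with, and no test was run on these genes. Every value below is a description, set where available beside the same value over all peaks or all genes.

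HNF4A is a nuclear receptor that keeps hepatocyte genes active, and NR5A2 is a nuclear receptor that controls genes of bile acid synthesis. The FOXA proteins are forkhead factors that open closed chromatin in the embryonic gut tube, and FOXA and GATA4 are known to bind a shared enhancer of the albumin gene in liver precursor cells. ONECUT factors are cut-homeodomain proteins of hepatocyte and bile duct development, and PROX1 is a homeodomain protein that hepatocytes and lymphatic endothelium share. GATA4 itself is a zinc-finger factor that binds DNA words with the core GATA, and in adult liver it is best known from the sinusoidal endothelium.

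The sequences that carry these results are the 50 bases to each side of the summit at the strongest peak of each gene, together with the peaks at the start sites of Hnf4a. The Hnf4a start-site peaks were chosen after their values were seen. Sequences are from the plus strand of GRCm38.p6, which is mm10, 5′ to 3′. Capitals mark each GATA word on either strand. The words searched were AGATAA and its form with a final G, which is AGATAG, together with the forms that open with T, which are TGATAA and, ending in G, also TGATAG. On the plus strand a word that lies on the minus strand reads as its reverse complement, so that AGATAA appears as TTATCT. For Foxa1, 30 bases around the GATA word are shown, because the summit lies in an untranslated exon. Onecut2 is described by its values only.
Nr5a2, rank 270, chr1:136960568-136960668: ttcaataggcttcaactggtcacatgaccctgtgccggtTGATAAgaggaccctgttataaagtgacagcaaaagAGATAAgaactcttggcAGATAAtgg
Hnf4a, rank 1443, chr2:163555573-163555673: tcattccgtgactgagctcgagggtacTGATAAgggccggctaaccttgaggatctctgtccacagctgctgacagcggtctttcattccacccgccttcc
Hnf4a distal start, rank 9827, chr2:163506713-163506813: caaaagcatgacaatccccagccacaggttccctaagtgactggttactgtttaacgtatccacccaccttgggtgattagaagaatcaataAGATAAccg
Hnf4a proximal start, rank 19022, chr2:163547029-163547129: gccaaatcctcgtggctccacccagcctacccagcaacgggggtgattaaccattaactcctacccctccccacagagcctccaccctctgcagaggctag
Foxa1, rank 7090, chr12:57546908-57546937: cagatgtttgtgTGATAAggcaggcggatc
Foxa2, rank 13019, chr2:148045759-148045859: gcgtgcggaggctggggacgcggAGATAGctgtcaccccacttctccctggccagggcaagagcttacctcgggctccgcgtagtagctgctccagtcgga
Foxa3, rank 12217, chr7:19013030-19013130: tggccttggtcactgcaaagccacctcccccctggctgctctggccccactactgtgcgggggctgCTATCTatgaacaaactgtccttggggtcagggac
Onecut1, rank 9927, chr9:74866755-74866855: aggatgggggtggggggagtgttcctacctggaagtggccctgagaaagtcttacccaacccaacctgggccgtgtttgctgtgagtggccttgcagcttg
Prox1, rank 4287, chr1:190174678-190174778: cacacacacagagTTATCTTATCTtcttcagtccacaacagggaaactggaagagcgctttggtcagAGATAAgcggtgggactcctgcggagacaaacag

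All 8 genes had at least 1 summit inside the gene or at most 10 kb away, against 47.6% of all protein-coding genes. The count at the share of genes of like span, in 20 bins of gene length, was 4.14 of 8. The genes were chosen with earlier results of these data known, so these values are only set side by side. Nr5a2 had 9 summits, Hnf4a 6, Onecut2 3 and Foxa3 2, and the other 4 genes had 1 each. The median over the 8 genes was 1.5, against 0 over all protein-coding genes, and their median span was 41271 bp, against 17414 bp over all. Peaks were ranked by the authors' signal score, a number without a unit that grows with the strength of the peak and is compared within 1 list only. The ranks ran from 270, in the first 1.12% of the list, to 24003, close to its end. The median score was 40.7 for the 24 peaks and 35.8 for all peaks, and 14 of the 24 lay above the median of all. The best rank per gene had a median of 5866 over the 8 genes, against 8666 over the 10348 genes with a summit. A best rank is taken over all summits of a gene, and this comparison was not matched for span or number of summits.

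**Figure D1:**
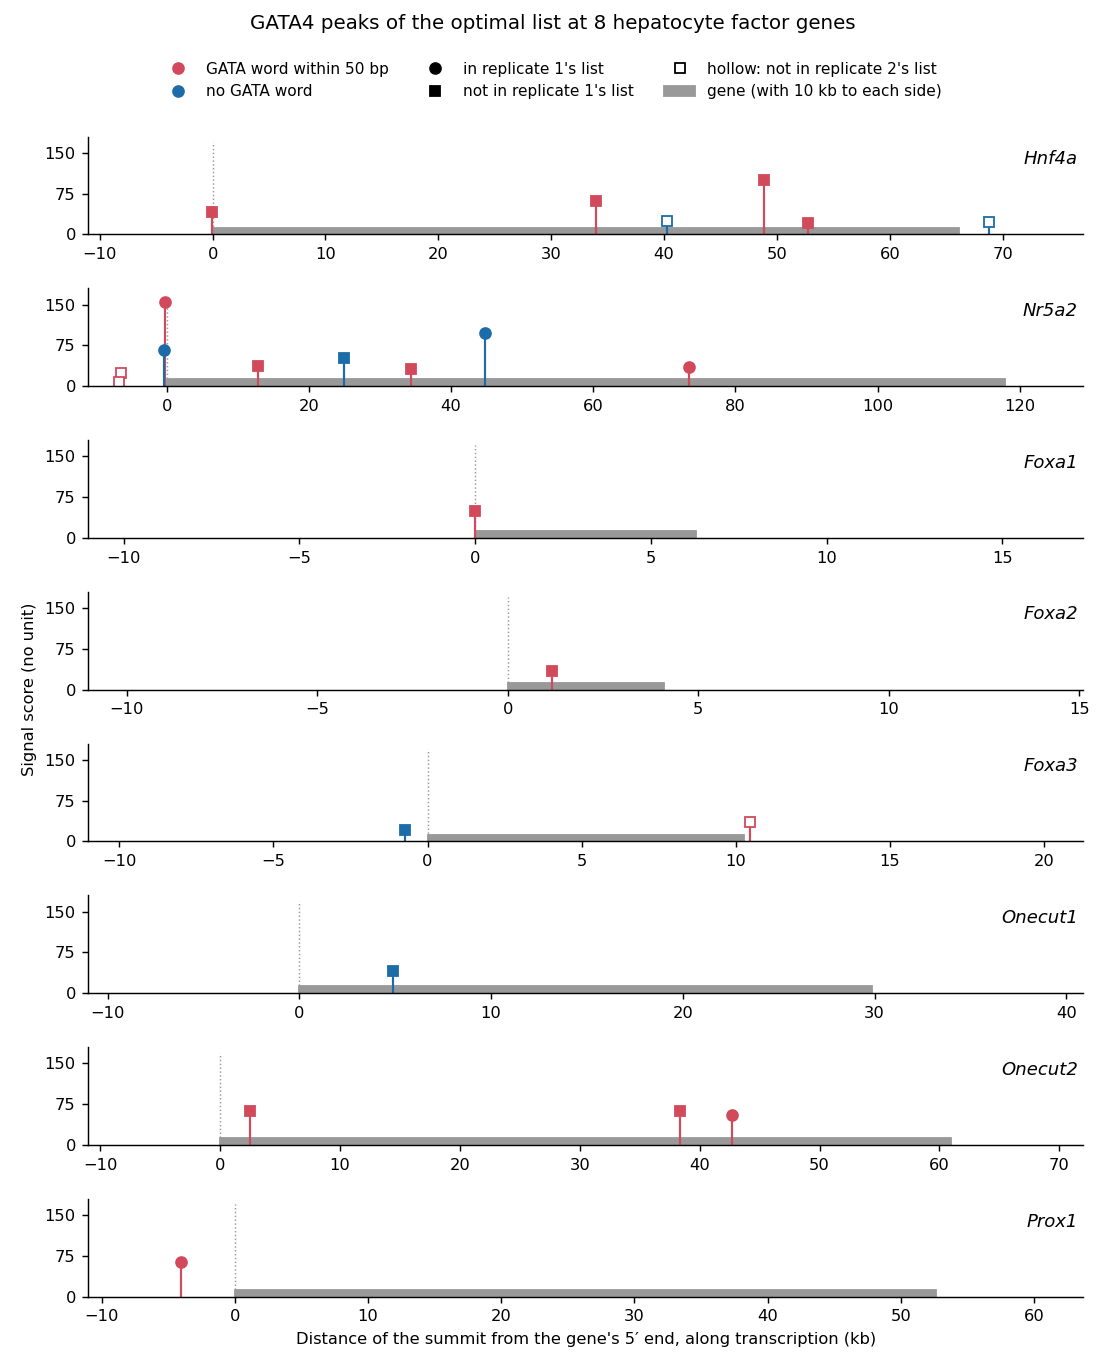
Signal score of each of the 24 peaks (vertical axis, no unit) against the distance of its summit from the 5′ end of its gene along transcription (horizontal axis, kb), with the gene as a grey bar and 10 kb to each side. Nr5a2 holds 9 peaks and the strongest of all, 170 bp upstream of its first start site, whereas Foxa1, Foxa2, Onecut1 and Prox1 hold 1 each. Red marks a GATA word within 50 bp of the summit, circles mark peaks in replicate 1's list and squares those not in it, and hollow symbols mark peaks not in replicate 2's.

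The peaks were unevenly shared among the genes, and the nuclear receptor genes Nr5a2 and Hnf4a held 15 of the 24. With the list cut by rank into 5 bins of 4810 peaks, 8 of the 24 peaks were in the strongest bin. Of these, 3 were at Nr5a2, 2 at Hnf4a, 2 at Onecut2 and 1 at Prox1. Peaks of Nr5a2 and Hnf4a were thus 5 of the 8 in the strongest bin, and they were also 4 of the 5 in the weakest. These counts include adjacent summits of Nr5a2. Those of rank 270 and 3872 were 203 bp apart, and those of rank 19548 and 24003 were 201 bp apart. With adjacent summits counted once, 22 peaks remained of the 24. The 3 forkhead genes had 4 peaks in all, with Foxa1's at rank 7090 as the strongest. Only 1.07% of protein-coding genes had as many summits as Nr5a2 or more, and 3.11% as many as Hnf4a or more. Among genes of like span the shares were 5.42% for Nr5a2 and 5.52% for Hnf4a. Prox1 and Onecut1, with 1 summit each in long windows, were matched or exceeded by 58.5% and 56.2% of genes of like span. Foxa1 and Foxa2 are short genes, and 31.0% and 34.8% of genes of like span had a summit at all.

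**Figure D2:**
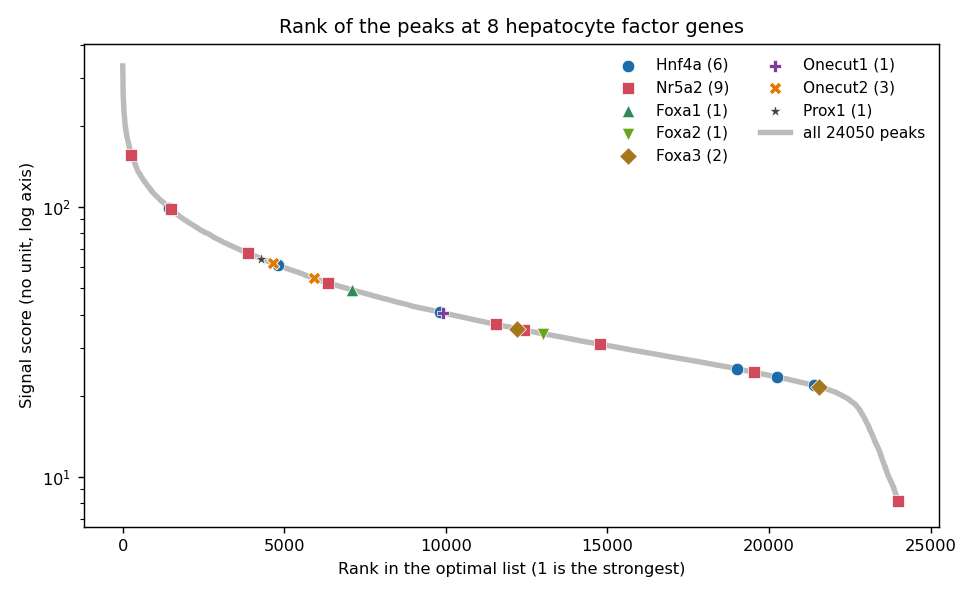
Signal score (vertical axis, log scale, no unit) against rank in the optimal list (horizontal axis, 1 is the strongest), with the 24 peaks as coloured symbols by gene on the grey curve of all 24050 peaks. The peaks run from rank 270 at Nr5a2 to rank 24003, also at Nr5a2, and those of the forkhead genes lie at rank 7090 or weaker.

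Nr5a2 lies on chromosome 1 at 136842571 to 136960448 on the minus strand. Its strongest peak, at chr1:136960488-136960732, had a summit 170 bp upstream of the first annotated start site and a signal score of 155.4. The replicates' relaxed lists, which hold peaks and background before any threshold, gave this peak a score of 46.2 in replicate 1 and 110.2 in replicate 2. Among the relaxed peaks these scores held rank 199 for replicate 1 and rank 388 for replicate 2. The peak was thus near the top of each sample's own list, and it was in every thresholded and conservative list examined. Its window held 3 GATA words, TGATAA once and AGATAA at the other positions, as printed above.

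A second Nr5a2 promoter peak (rank 3872), at chr1:136960641-136961000 with a signal score of 67.4, had its summit 203 bp further upstream, at 373 bp from the start site, and held no GATA word within 50 bp. In replicate 1 the highest relaxed peak over it was that of the stronger neighbour, and the nearest one scored 12.9 at rank 6770. In replicate 2 it scored 28.9 at rank 12240. The neighbours' peaks overlap, so their presence in a list is not independent.

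The intron peak of rank 1487, at chr1:136915607-136915728, lay 44807 bp downstream of the first start site. It scored 20.8 in replicate 1 and 78.6 in replicate 2 and was in every list examined, again without a GATA word within 50 bp. A weaker intron peak (rank 12427), with the word TTATCT beside its summit, went the other way between the samples. It ranked 2592 in replicate 1's relaxed list and 29596 in replicate 2's, and it passed the threshold in both replicates' own lists. The other intron peaks, of rank 6346, 11561 and 14780, passed in replicate 2's list alone of the pair. The remaining pair, of rank 19548 and 24003, lay 6437 and 6638 bp upstream. These summits were 201 bp apart, shared a relaxed peak in each replicate and were in neither replicate's thresholded list. A GATA word lay beside each.

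Hnf4a lies on chromosome 2 at 163506808 to 163572910 on the plus strand, and has long been known to be transcribed from a distal and a proximal promoter, of which the proximal one serves adult liver. GATA4 peaks lay at both. The peak at chr2:163506583-163506942 (rank 9827) had its summit 45 bp upstream of the distal start, which is the 5′ end of the gene. The transcript that begins there is not in the basic annotation, so the peak counts as intergenic in the classes given below. The word AGATAA at its edge spans the start site, and the letters ATCAAT, the ONECUT word ATTGAT read from the other strand, lie just before it. The peak at the proximal start, at chr2:163546899-163547258 (rank 19022), had its summit 108 bp upstream, with no GATA word.

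Neither start-site peak of Hnf4a was strong in both samples. The signal score of the optimal list was 40.8 for the distal one and 25.2 for the proximal one. The distal one scored 33.7 in replicate 2, at rank 9433 of its relaxed list. In replicate 1 it overlapped only a peak of score 4.68, at rank 238952, whose own summit lay outside the called region. The proximal one scored 7.36 in replicate 1 and 17.9 in replicate 2, and was in none of the thresholded or conservative lists besides the optimal one. The distal site passed a threshold in replicate 2 alone and in the later run's list, and the proximal site in neither sample alone.

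The strongest peak of Hnf4a (rank 1443) was in an intron at chr2:163555526-163555711, 8435 bp downstream of the proximal start, with a signal score of 99.3. It scored 16.6 in replicate 1 and 82.8 in replicate 2, at ranks 3856 and 1152 of their relaxed lists. It was in both conservative lists and in replicate 2's list, and missing from replicate 1's. Its window held TGATAA and also the E-box word CAGCTG, of the kind bound by TAL1. The same pair of motifs stood at the next peak, at chr2:163540558-163540917 (rank 4810, signal score 60.9), in an intron between the distal and proximal starts, 6449 bp upstream of the proximal one and inside the antisense gene Hnf4aos. That peak scored 8.95 in replicate 1 and 51.8 in replicate 2. These were the 2 peaks of the 24 with CAGCTG, a word found at 7.68% of all summits. The other Hnf4a peaks, of rank 20235 downstream of the gene and 21380 in an intron, were in neither conservative list. None of the 6 Hnf4a peaks was in replicate 1's list, and 4 were in replicate 2's.

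The 3 forkhead genes carried 4 peaks within 10 kb, of which 3 lay near a start site and 1 lay downstream of Foxa3. Foxa1, on chromosome 12 at 57540628 to 57546916 on the minus strand, had 1 peak, at chr12:57546729-57547088, with a signal score of 49.3. Its summit was 788 bp upstream of the coding transcript's start and 7 bp inside the exon of a noncoding transcript. It scored 8.88 in replicate 1 and 41.1 in replicate 2, and was in both conservative lists and replicate 2's list. Its window held TGATAA and an ETS word.

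Foxa2, on chromosome 2 at 148042877 to 148046969 on the minus strand, had 1 peak, at chr2:148045629-148045988 (rank 13019, signal score 34.0). Its summit was 139 bp downstream of the nearer of its start sites and 1160 bp downstream of the farther one. It scored 7.16 in replicate 1 and 25.9 in replicate 2. It was in replicate 2's list and the later run's list, and in neither conservative list. The window was rich in CG, with a GC content of 66.3%, against a median of 50.5% over all summits, and held AGATAG.

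Foxa3, on chromosome 7 at 19013284 to 19023538 on the minus strand, had 2 peaks. The stronger, at chr7:19012900-19013259 (rank 12217, signal score 35.4), lay just downstream of the gene, 10458 bp from its start, with CTATCT near the summit. The nearest coding start was that of the neighbouring gene Irf2bp1, at 9036 bp. This stronger peak scored 9.08 in replicate 1 and 24.5 in replicate 2, and passed in the later run's lists but in neither replicate's own. The weaker, at chr7:19024075-19024434 (rank 21564, signal score 21.6), lay 717 bp upstream of Foxa3 and 122 bp from the start of Sympk, a neighbouring gene on the other strand, so it cannot be assigned to 1 of them. That window held no GATA word and 13 CpG dinucleotides, the most of the 24.

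Onecut1, on chromosome 9 at 74861921 to 74891781 on the plus strand, had 1 peak, at chr9:74866625-74866984 (rank 9927, signal score 40.6), in an intron 4884 bp from the coding start and 321 bp inside a noncoding transcript of the gene. It scored 13.3 in replicate 1 and 27.6 in replicate 2, and was in both conservative lists. Onecut1 was the 1 gene of the 8 whose strongest peak lacked a GATA word within 50 bp. The window held the NR5A word CAAGGCCA on the minus strand.

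Onecut2, on chromosome 18 at 64340020 to 64400987 on the plus strand, had 3 intron peaks of similar rank, 4641, 4659 and 5920, at chr18:64378192-64378551, chr18:64342413-64342510 and chr18:64382541-64382900. Their signal scores were 62.0, 61.9 and 54.6. The summits lay, in the same order, 38352, 2455 and 42701 bp downstream of the start. Every one held a GATA word and was in both conservative lists and replicate 2's list. The samples ordered them differently: the peak of rank 5920 scored 26.5 in replicate 1 and 29.8 in replicate 2, whereas that of rank 4641 scored 11.5 in replicate 1 and 48.9 in replicate 2. The peak of rank 5920 was the 1 that passed in replicate 1's list. It also held a forkhead word.

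Prox1, on chromosome 1 at 190118035 to 190170714 on the minus strand, had 1 peak, at chr1:190174548-190174907 (rank 4287, signal score 64.4). Its summit was 4014 bp upstream of the first start, inside the antisense gene Prox1os. It scored 26.6 in replicate 1, at rank 1221 of its relaxed list, and 41.1 in replicate 2, at rank 6493. It was in every list examined. Its window held 3 GATA words, of which a pair overlaps as TTATCTTATCT.

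The 24 peaks were found in the samples' own lists about as often as other peaks of their strength. They shared at least 1 base with replicate 1's thresholded list in 6 cases (95% Wilson interval of the share 12.0 to 44.9%), against 17.0% of all optimal peaks. Taking each peak at the share of its rank bin, 5.73 would be in replicate 1's list. Replicate 2's list held 19, or 79.2% (59.5 to 90.8%), against 82.5% of all, and the shares by bin give 20.4. The conservative list of the earlier run held 11 of 24, against 38.2% of all peaks, and that of the later run 14, against 40.8%. The later run's thresholded list held 19, against 83.2%. These intervals cover counting error over peaks only.

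By gene, replicate 1's own list had a summit at 3 of the 8 genes, Nr5a2, Onecut2 and Prox1, against 11.4% of all protein-coding genes. Replicate 2's own list had one at all 8, against 51.8%. The lists differ in length, with 4287 peaks for replicate 1 and 26314 for replicate 2. A relaxed peak was found over 22 of the 24 in replicate 1, against 72.1% of all optimal peaks, and over all 24 in replicate 2, against 99.9%. The 2 without one in replicate 1 were Nr5a2's of rank 11561 and Foxa3's of rank 21564.

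**Figure D3:**
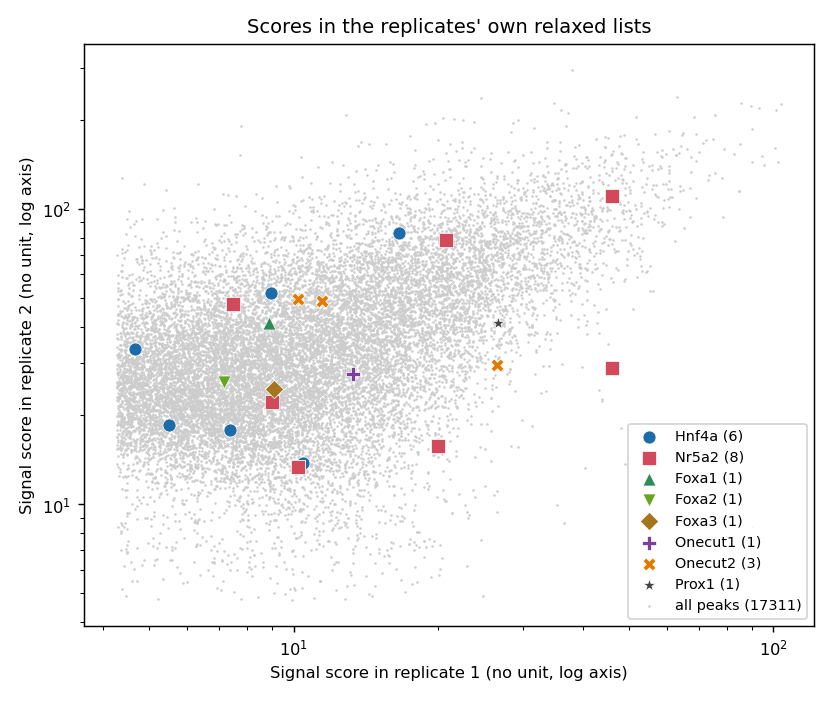
Signal score in replicate 2's relaxed list (vertical axis) against that in replicate 1's (horizontal axis), both on log scales without a unit, for the 22 peaks at the 8 genes with a score in each sample (coloured symbols, number per gene in the legend) and for all such peaks of the optimal list (grey). The Nr5a2 peak of rank 270 is at the upper right, with 46.2 in replicate 1 and 110.2 in replicate 2, and the Nr5a2 peak of rank 3872 has the same score on the horizontal axis because it shares that peak in replicate 1.

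By position, 6 of the 24 summits (12.0 to 44.9%) were at promoters, here within 1 kb of a coding start site in the basic annotation, against 21.6% of all peaks. Introns held 12, against 40.4% of all, and intergenic sequence 6, against 35.7%. Promoters were assigned first, and exons were those of coding genes in the basic annotation. By these classes none of the 24 was in an exon, against 2.33% of all, and 0 of 24 allows up to 13.8% by the same interval. The exon of the noncoding Foxa1 transcript was not counted, and that summit is among the promoter peaks. Counting every annotated start of the genes, coding or not, 8 of the 24 summits lay within 1 kb of one, at 6 genes. Onecut2 and Prox1 were the 2 genes without such a peak.

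GATA words stood at most of the summits. A word lay within 50 bp of 17 of the 24 (70.8%, 50.8 to 85.1%), against 52.8% of all summits, and 13.4 would be found at the shares of their rank bins. In flanking windows of equal length, centred 500 bp from the summits, 5 of 48 (10.4%) held one, against 16.0% of such windows over all peaks. The interval includes the share of all peaks, but it treats the 24 peaks as independent, and several share a gene. Whether the share was higher at these genes was not tested. The strict word AGATAA was at 10 of 24, against 27.2% of all. Of the 6 promoter peaks 3 held a GATA word, against 25.7% of all promoter peaks, and of the other 18 peaks 14 did, against 60.3%. The strongest peak held a GATA word in 7 of the 8 genes. At 4 peaks, against 10.4% of all, there were 2 or more words: Nr5a2's of rank 270, Prox1's, Onecut2's of rank 5920 and Hnf4a's of rank 21380.

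Words of the factors that the genes themselves encode stood at few of these summits, and at few of all summits. The forkhead words TGTTTAC and TATTTAC stood at 2 of 24 (8.33%), against 3.87% of all summits. These 2 were Nr5a2's of rank 14780 and Onecut2's of rank 5920. The NR5A words CAAGGTCA and CAAGGCCA stood at 2 (8.33%), at Foxa3 and Onecut1, against 2.78%. The ONECUT word ATTGAT stood at 1 (4.17%), the distal start of Hnf4a, against 4.03%. The HNF4 words CAAAGTCCA and CAAAGTTCA stood at 0, against 0.973%. With counts of 0 to 2, no difference from all summits can be read. ETS words, which are AGGAAA or AGGAAG and the same words opening with C, such as CGGAAG, stood at 7 of 24, or 29.2%, against 46.0% of all summits and 27.1% of the 24 peaks' own flanks. The nuclear receptor word AGGTCA, which CAAGGTCA contains, stood at 0, against 11.8%. The SP word GGGCGG stood at 1, against 9.33%, and the CEBP words TTGCGCAA or TTACGCAA, the AP-1 words TGACTCA or TGAGTCA and the unrelated control ATATGC or TTATGC at 0, against 0.183%, 2.45% and 3.89%. All words were searched on both strands. A word absent from a window says only that these letters are not there.

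**Figure D4:**
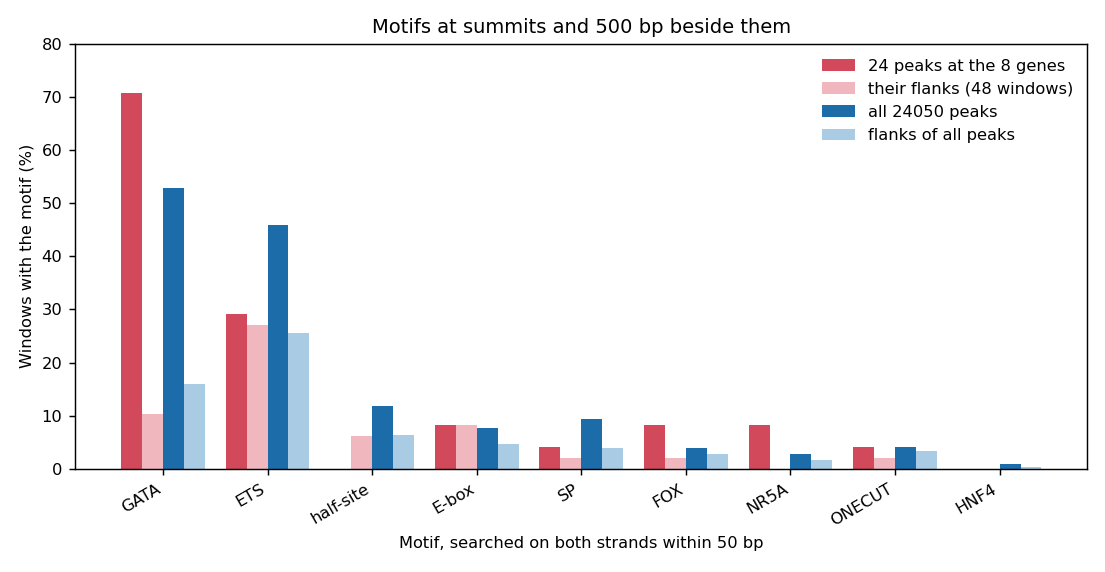
Share of windows with each motif (vertical axis, %) for the 24 summits at the 8 genes, their 48 flanks, all 24050 summits and the flanks of all summits, with motifs named by factor family along the horizontal axis. GATA words stand at 70.8% of the 24 summits and 52.8% of all, and ETS words at 29.2% and 46.0%.

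Beyond 10 kb, a further 31 peaks had the start site of 1 of these genes as the nearest coding start, a link by distance alone. Onecut1 and Nr5a2 had 8 each, Foxa2 7, Prox1 5 and Foxa1 3, and Hnf4a, Foxa3 and Onecut2 had 0. Matching counts over all protein-coding genes were not taken. Of the 31 peaks, 28 were intergenic, and the farthest lay 333.0 kb from the start. A GATA word lay beside 22 of the 31, against 52.8% of all summits. Replicate 2's list held 25, against 82.5% of all optimal peaks, and replicate 1's list held 8, against 17.0%. For 4 genes the strongest such peak outranked the peak within 10 kb. For Prox1 it had rank 1520, 34.0 kb upstream within Prox1os. For Foxa1 it had rank 2432 and lay in an intron of the neighbouring gene Mipol1, 98.8 kb downstream. For Onecut1 it had rank 3177, 68.2 kb upstream, and for Foxa2 rank 3492, 101.4 kb downstream. The count of 1 peak within 10 kb at Foxa1, Foxa2, Onecut1 and Prox1 thus leaves out these farther peaks. Whether peaks are few or many around these genes was not compared with other genes.

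Among 16 other genes of the hepatocyte factor network, 11 had a summit inside the gene or at most 10 kb away. The share of all protein-coding genes was 47.6%, and the count at the share of genes of like span was 8.24. This list, too, was chosen with earlier results of these data known. Hhex, a homeobox gene of early liver, had the strongest peak (rank 74), followed by those of Nr0b2, a corepressor gene (rank 556), Cebpa, a leucine zipper factor gene (rank 1233), and Nr1h4, the bile acid receptor gene (rank 2415). The 5 without a summit were Hnf4g, Onecut3, Nr5a1, Tbx3 and Sall4. Beyond 10 kb, Tbx3 had the nearest coding start for 4 peaks, the strongest at rank 747, and Onecut3 for 1, at rank 4643. Hnf4g, Nr5a1 and Sall4 had 0 such peaks. Onecut3 had 1 summit in replicate 2's own list. Prox2, a relative of Prox1, had 1 summit in the optimal list, at rank 14541. The nearest coding start to that summit, within 1 kb, was that of another gene.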

How the data were processed

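GATA4 ChIP-seq peak lists of 2 liver samples were used. Per README tables that were deposited too, the mm10 lists come from an earlier run (relaxed, optimal and conservative lists) and a later run (thresholded and conservative lists). Which aligner and peak caller ran was not given in the sources used here. Both the signal score and the score of the irreproducible discovery rate (IDR) are as the authors deposited them, and scores in the optimal list go down to 537, where 540 stands for an IDR of 0.05. The optimal list held 24083 lines, of which 33 outside chromosomes 1 to 19, X and Y were left out. Adjacent summits were kept apart.

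Sequence and genes were GRCm38.p6 and GENCODE mouse release 21 basic, with coordinates from 1. A peak was in a list where at least 1 base was shared. For a replicate's score, the highest relaxed peak holding the summit was taken, or else the nearest that overlapped. Motif windows spanned 50 bp to each side. The code was checked on simulated peaks. Python 3.11.15, pysam 0.24.0 and scipy 1.17.1 were used. The members, the network list and which peaks to name were chosen with earlier results of these data known: all 8 genes, the 3 best ranked peaks and promoter peaks of each, and at most 4 network genes and those with no summit. Alternatives were other lists, distances, links, overlaps, windows and start sites. Some items of the network list and the motif search are not reported here.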

Additional observations from a re-analysis of the deposited data

How the results depend on the processing

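No paired analysis was possible because the series holds 1 group. Using each replicate's own list, without the other replicate, left between 3 and 8 genes with a summit, 5 and 25 peaks, a median of 0 and 2.5 summits per gene, 1 and 5 promoter peaks, and 5 and 12 network genes. The median best rank, as a percent of the list, was 24.4 with the optimal list, between 23.1 and 26.8 with the replicates' lists, 44.2 with the conservative list (medians over the genes left, which are 3 for replicate 1's list and 6 for the conservative list), 26.6 with the later run's, 36.5 at an IDR of 0.01 and 10.1 by nearest start site. The conservative list of the earlier run had 12 summits of its own at these genes, 3 of them at promoters, whereas 11 of the 24 optimal peaks overlapped it. At Hnf4a it had 3 summits of its own, and 2 optimal peaks overlapped it. Nearest start sites gave 51 peaks with a median of 5 per gene. Within 20 kb the median was 2.5. GATA words stood at 41.7% with AGATAA alone and at 45.8% within 25 bp, where all summits had 27.2% and 34.4%. With start sites of the comprehensive annotation, chosen after seeing the data, 9 peaks were at promoters instead of 6. The other 64 of these 83 values stayed within 1.5 times or within the interval or replicate spread. Of the single genes' summit counts and best ranks, 54 values moved further and 66 did not. Hnf4a had 3 summits at an IDR of 0.01 and in the conservative list, and Nr5a2 3 in replicate 1's list. Foxa3's strongest summit in replicate 2's own list stood at 85.1% of that list, which lacked the Foxa3 peak of rank 12217. By nearest start site, Foxa3 had 0 peaks and 7 of the 8 genes had at least 1. Depth is unknown, and 24 peaks limit every share.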
